A study of Homo sapiens with 4 samples.

Results

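The genes described here are 35 zinc finger genes of a cluster on the short arm of chromosome 19, in bands 19p13.11 to 19p12. They were picked by symbol from a table of 56809 genes, and all 35 had a row. The cluster was chosen from the same contrast that is described below, because zinc finger genes of chromosome 19 were mostly lower in the BCL7A knockout (KO) libraries. The differences between the groups are therefore given as a description of the members, not as a test of them.

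The study sequenced poly(A) RNA from NCI-H929, an established human multiple myeloma line of malignant plasma cells. All cells expressed the nuclease Cas9. Per the protocol, 2 libraries came from cells that carried a doxycycline-inducible construct for the KO of BCL7A, and 2 from cells with a control construct. The sample titles instead call the control cells wild type, so whether they were transduced is not certain. Both groups went through 3 days of puromycin selection and 24 h of doxycycline at 0.5 ug/ml, per the protocol. Nothing in the labels says whether the KO cells were a pool or 1 clone, or whether replicate libraries stem from separate cultures; the p-values then speak for the spread of these libraries alone, and that spread may be technical. BCL7A is a subunit of the BAF (SWI/SNF) chromatin remodelling complex. The comparison asks how the transcriptome of the line differs once BCL7A is targeted.

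These genes belong to the KRAB zinc finger family, the largest family of transcription factors in humans. The C2H2 zinc fingers, repeated in tandem, read DNA, and the KRAB domain recruits the corepressor TRIM28. TRIM28 in turn brings the histone methyltransferase SETDB1 and heterochromatin protein 1, which silence the bound site, often a transposable element. The cluster grew by repeated duplication in primates, and the genes themselves are known to carry repressive histone marks over their zinc finger exons.

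The 35 genes span 4.46 megabases (chromosome 19, 19668796 to 24129961, GRCh38), with 19 on the plus and 16 on the minus strand. In the longest annotated coding sequence of each gene, the C2H2 finger pattern matched between 0 and 36 times, with a median of 13. ZNF208 had the most matches (36), followed by ZNF729 (34) and ZNF91 (31). ZNF738, whose longest coding sequence encodes 137 residues, had 0.

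Many promoters of the cluster are alike, and 4 of them are shown here to set against the values that follow. Promoter windows of 300 bases, from 250 before to 50 after each gene's start in RefSeq (GRCh38.p14), were available for 27 of the 35 genes. ZNF682 had 2 windows. For some genes this start lies well inside the gene span used elsewhere in this text. The window of ZNF43 is at 21836133 to 21836432, while the gene spans 21804949 to 21852125 on the minus strand. ZNF730, ZNF254 and ZNF429 are further cases. Which start these cells used was not tested. The run CCAATCAG, a CCAAT box with its next bases, was present in all 27 genes and 27 of the 28 windows, with both strands searched, against 3.97% of all 35116 promoter windows in the table. It began at a median of 81 bases before the start, counting the copy farthest upstream, and 13 windows held it at least 2 times. The run GAGTGACA, in these windows always as its reverse complement TGTCACTC, was present in 24 of 28 windows (1.30% of all windows). The run CGGAAGCC, or its reverse complement GGCTTCCG, was present in 20 of 28 (2.34% of all windows). These 3 runs were chosen after the windows were seen, as common 8-base runs. On either strand, no 2 of them share more than 3 letters in a row. The ETS-type run CCGGAAGT, which shares 6 letters in a row with CGGAAGCC, was in 0 of 28 windows (4.14% of all windows), and TATAAA was in 3 (11.5% of all windows). A match describes letters only and is no evidence of binding.

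The 4 upstream sequences below were picked as pairs of closely similar promoters whose genes had very different values between the groups. Other close pairs, among them the most similar, had similar values, as given further below. Each gives the 250 bases before the start, 5' to 3' along the gene's strand (GRCh38.p14): ZNF486 at chr19:20166964-20167213 on the plus strand, ZNF66 at chr19:20776054-20776303 on the plus strand, ZNF208 at chr19:22010944-22011193 on the minus strand and ZNF91 at chr19:23395472-23395721 on the minus strand. Capitals mark CCAATCAG, TGTCACTC and GGCTTCCG.
ZNF486: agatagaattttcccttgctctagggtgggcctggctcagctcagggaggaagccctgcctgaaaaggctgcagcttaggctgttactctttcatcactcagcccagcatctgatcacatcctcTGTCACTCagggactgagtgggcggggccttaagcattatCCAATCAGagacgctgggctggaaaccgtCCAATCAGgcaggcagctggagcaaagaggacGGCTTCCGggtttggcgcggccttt
ZNF66: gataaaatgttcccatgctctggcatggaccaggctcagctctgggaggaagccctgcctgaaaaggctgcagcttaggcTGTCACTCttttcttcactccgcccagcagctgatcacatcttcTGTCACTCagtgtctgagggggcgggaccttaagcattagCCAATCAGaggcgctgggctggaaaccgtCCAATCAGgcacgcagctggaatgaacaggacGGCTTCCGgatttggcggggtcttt
ZNF208: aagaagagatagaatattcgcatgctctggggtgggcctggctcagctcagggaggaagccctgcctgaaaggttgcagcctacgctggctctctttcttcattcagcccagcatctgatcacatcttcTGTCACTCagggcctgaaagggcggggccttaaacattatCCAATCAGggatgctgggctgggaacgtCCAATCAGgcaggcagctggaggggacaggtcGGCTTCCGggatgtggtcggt
ZNF91: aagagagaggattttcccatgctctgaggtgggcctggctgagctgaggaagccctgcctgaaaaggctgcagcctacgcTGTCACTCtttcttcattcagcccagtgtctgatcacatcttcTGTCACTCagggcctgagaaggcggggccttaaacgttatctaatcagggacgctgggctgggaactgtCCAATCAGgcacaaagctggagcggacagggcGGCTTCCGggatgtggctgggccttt

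Over the whole windows, those of ZNF486 and ZNF66 were identical over 87.4% of their aligned columns, and those of ZNF208 and ZNF91 over 86.0%. ZNF486 and ZNF208 were nearly absent from the KO libraries, whereas ZNF66 and ZNF91 were still present there, as the values below show.

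The cluster was lower in the KO libraries, and it split into genes that were almost absent there, genes that were lower, and genes at about the same or a higher level. Levels are given as CPM (each gene's count as a share of its library's total count, after scaling for library composition), and lower or higher always means in the KO relative to the control libraries. The summed level of all 35 genes was 239 and 252 CPM in the KO libraries against 458 and 438 CPM in the control libraries, a ratio of 1.82. Of the 34 genes that passed the filter on low counts, 24 were called lower and 4 higher by edgeR's quasi-likelihood test at an adjusted p under 0.05, and 6 did not pass. Among all 17885 tested genes, 39.8% were called lower and 36.4% higher, so calls are common in this comparison. In 26 of the 34, both KO libraries lay below both control libraries, a pattern found in 46.1% of all tested genes. In 7 they lay above, as in 41.3% of all tested genes, and in 1, ZNF98, the groups overlapped. The median log2 fold change (KO over control) was -1.45 over the 34 genes and -0.06 over all tested genes. ZNF728 and ZNF90, with 0 and 2 counts in the KO libraries, have the lowest values, so the bound and the ratio given for them below leave this median at -1.45 by construction.

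At least a 10-fold difference was found for 12 of the 34 genes, all lower, compared with 8.48% of all tested genes that were called and at least 10-fold lower. This limit was set after the values were seen; the nearest gene inside it was ZNF730 (log2 fold change -3.60, SE 0.40) and the nearest outside ZNF93 (log2 fold change -2.70, SE 0.16). The 12 held 27.4% of the cluster's summed level in the control libraries and 0.985% in the KO libraries. Their sum was 123 CPM in control and 2.42 CPM in KO, while the other 23 genes summed to 326 and 243 CPM.

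**Figure D1:**
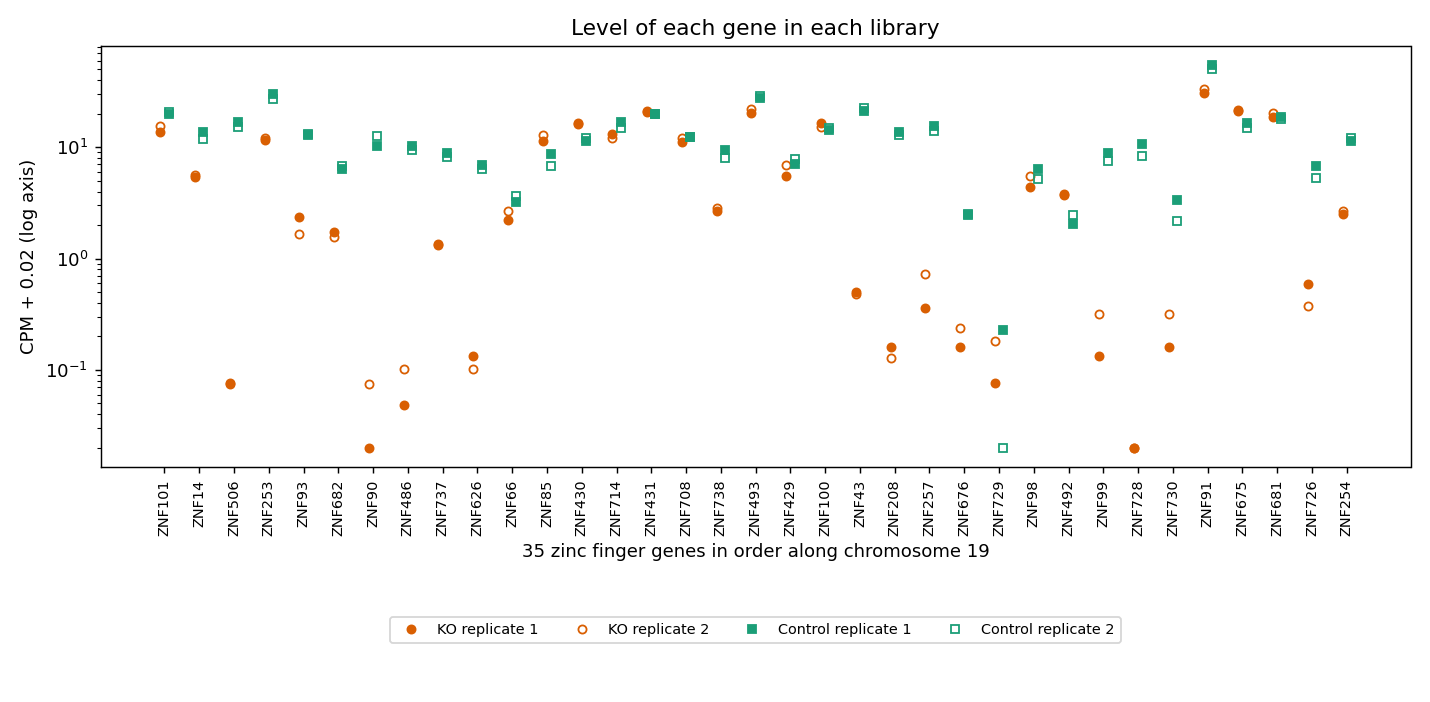
Level of each of the 35 genes in each of the 4 libraries, in order along chromosome 19, as CPM plus 0.02 on a log axis (circles, KO; squares, control; filled, replicate 1; open, replicate 2). In 12 genes both KO circles lie far under both control squares, with group means more than 10-fold apart, while in genes such as ZNF431 and ZNF100 the 4 libraries lie close together.

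ZNF728 (22975468 to 23003176, minus strand) had 0 counts in both KO libraries and 10.6 and 8.38 CPM in the control libraries. It was at least 226-fold lower, a bound set at 3 counts over the KO group. ZNF90 (20077994 to 20127076, plus strand) had 0 and 2 counts in the KO libraries and 197 and 282 counts in the control libraries. That is a ratio of 416, with an exact 95% Clopper-Pearson counting interval of 114 to 3442, which covers counting error only. Both genes were thus at the edge of detection in 1 group and readily counted in the other.

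ZNF506 (19785839 to 19821751, minus strand) was 0.0570 and 0.0541 CPM in KO and 16.8 and 15.2 CPM in control, with 2 counts in each KO library (log2 fold change -8.06, SE 0.27). ZNF486 (20167228 to 20200490, plus strand) was 0.0285 and 0.0812 against 10.2 and 9.42 CPM (log2 fold change -7.35, SE 0.31), from 1 and 3 counts in KO. ZNF626 was 0.114 and 0.0812 against 6.88 and 6.35 CPM, 67.8-fold lower. In all 3 genes the control libraries differed by less than 2 CPM from one another, and every KO library held at most 4 counts. ZNF208 (21932958 to 22010949, minus strand), a locus associated with telomere length in population studies, was 0.142 and 0.108 against 13.8 and 12.8 CPM (log2 fold change -6.68, SE 0.25). ZNF43 (21804949 to 21852125, minus strand), the gene of this group with the highest control CPM, was 0.484 and 0.460 against 21.0 and 22.6 CPM, 46.1-fold lower. ZNF257 was 0.342 and 0.704 against 15.5 and 14.1 CPM, 28.3-fold lower. The 3 genes are consecutive among the members. None had overlapping groups, and in 46.1% of all tested genes both KO libraries likewise lay below both control libraries.

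ZNF99, which encodes a protein with 25 finger matches, was 0.114 and 0.298 against 8.90 and 7.57 CPM, 40.0-fold lower. ZNF726 was 0.570 and 0.352 against 6.83 and 5.23 CPM, 13.1-fold lower. The last members of this group, ZNF676 and ZNF730, had means under 2 CPM over the 4 libraries, with 0.142 to 0.298 CPM in KO and 2.16 to 3.36 CPM in control. Over all 12 genes, no KO library exceeded 0.704 CPM, and no control library was below 2.16 CPM. A gap between the groups follows from how the 12 were chosen. Read counts in a single KO library ranged up to 26, although the KO libraries were the deeper ones. In bulk RNA, fewer cells with a transcript and less of it per cell cannot be told apart.

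A further 12 genes were called lower by less than 10-fold, and their mean in the KO libraries was at least 1.32 CPM. ZNF93, which encodes a repressor of L1 retrotransposons, was 2.34 and 1.65 against 12.8 and 13.1 CPM, 6.51-fold lower. ZNF737 was 1.34 and 1.30 against 8.90 and 8.11 CPM, 6.45-fold lower, and ZNF254 was 2.48 and 2.68 against 11.4 and 12.1 CPM, 4.55-fold lower. In all 3, the gap between groups was wider than that between replicates. ZNF682 was 1.71 and 1.54 against 6.36 and 6.76 CPM (log2 fold change -2.01, SE 0.19). ZNF738, the gene without a finger match, was 2.68 and 2.81 against 9.37 and 7.98 CPM (log2 fold change -1.65, SE 0.16). ZNF253 was 11.6 and 12.1 against 29.8 and 27.0 CPM (log2 fold change -1.26, SE 0.08). With ZNF14, at 5.35 and 5.66 against 13.7 and 11.8 CPM (log2 fold change -1.21, SE 0.13), these genes were between 2.32-fold and 4.04-fold lower.

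ZNF91 (23304991 to 23395560, minus strand), which encodes a repressor of SVA elements, had the highest CPM of the cluster in every library. It was 30.8 and 33.2 CPM in KO and 54.6 and 49.9 CPM in control, 1.63-fold lower (log2 fold change -0.70, SE 0.06). ZNF493 was 20.2 and 22.1 against 27.5 and 28.7 CPM, 1.33-fold lower. ZNF101, the first gene of the cluster, was 13.7 and 15.5 against 19.8 and 20.9 CPM, 1.39-fold lower. These 3 differences were small but larger than the gap between replicates. ZNF714 (13.1 and 12.2 against 16.9 and 14.9 CPM) and ZNF66 (2.22 and 2.68 against 3.21 and 3.65 CPM) completed this group, with log2 fold changes of -0.33 and -0.49. ZNF66 missed the threshold in 6 of 14 alternative analyses, among them leaving out KO replicate 1 (log2 fold change -0.35), KO replicate 2 (-0.62) or control replicate 2 (-0.40). ZNF714 missed it with DESeq2 (-0.33) and without KO replicate 2 (-0.27), against -0.33 in the reported analysis.

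In the other direction, 4 genes were called higher, and these 4 calls held in each of the 14 alternative analyses. ZNF492 had the largest difference in this direction, with 3.70 and 3.82 CPM in KO and 2.02 and 2.43 CPM in control (log2 fold change 0.75, SE 0.20). ZNF85 (20923222 to 20950697, plus strand) was 11.3 and 12.8 against 8.74 and 6.80 CPM, 1.55-fold higher. ZNF430 was 16.03 and 16.6 against 11.3 and 12.1 CPM, 1.40-fold higher. In these genes both KO libraries lay above both control libraries, as in 41.3% of all tested genes. ZNF675 (23525631 to 23687220, minus strand), whose product binds the signalling adaptor TRAF6, was 21.3 and 21.5 against 16.6 and 15.0 CPM, 1.36-fold higher. These 4 differences, between 1.36-fold and 1.69-fold, were far smaller than those of the 12 genes nearly absent from the KO libraries.

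The remaining 6 tested genes did not pass the threshold. ZNF431 was 20.9 and 21.3 against 19.8 and 20.1 CPM, ZNF681 18.6 and 20.5 against 18.5 and 18.0 CPM and ZNF100 16.4 and 15.1 against 14.3 and 14.9 CPM. Their log2 fold changes were 0.08, 0.10 and 0.11 and turned negative when libraries were scaled by upper quartiles (-0.0517, -0.0371 and -0.0269), so no direction can be given. ZNF708 was 11.1 and 11.99 against 12.4 and 12.3 CPM and ZNF429 5.55 and 6.93 against 6.99 and 7.84 CPM. Both passed as lower with upper-quartile scaling (log2 fold changes -0.23 and -0.38), and ZNF429 also without KO replicate 2 (-0.41). ZNF98 was 4.39 and 5.47 against 6.36 and 5.14 CPM, the only tested gene of the cluster whose groups overlapped. ZNF729 had 2 and 6 counts in the KO and 4 and 0 in the control libraries, too few to be tested.

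**Figure D2:**
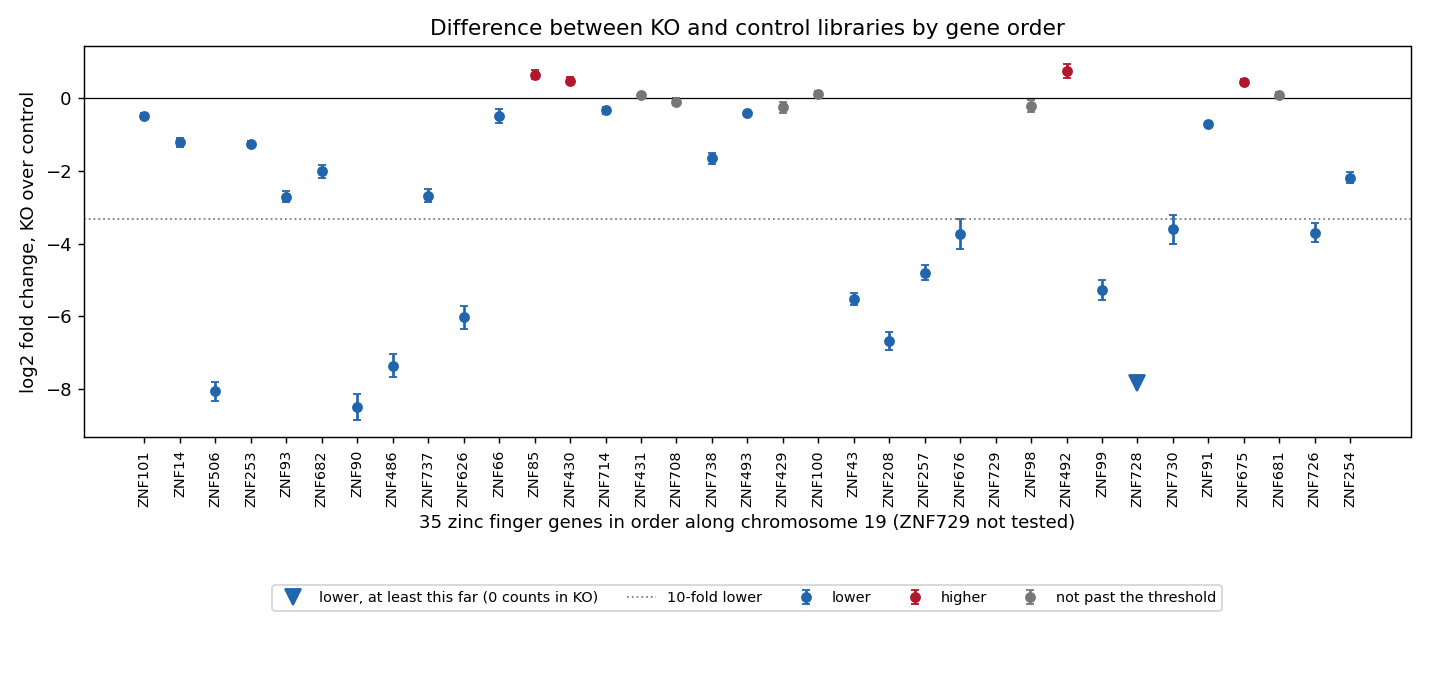
Log2 fold change (KO over control, bars ± SE) of the 34 tested genes in order along chromosome 19; the triangle marks the bound for ZNF728, which had 0 counts in both KO libraries. Genes at least 10-fold lower (under the dotted line) stand in 6 stretches among the members, the longest being ZNF43, ZNF208, ZNF257 and ZNF676. From ZNF66 to ZNF100, 10 consecutive members lie above the line.

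Along the chromosome, stretches of nearly absent genes lay between stretches of members that were still detected in the KO libraries. ZNF729, in a stretch of the second kind, was too low in both groups to be tested. The 12 stood in 6 stretches, 3 of them single genes, and 9 of the 12 had a member of the same group directly beside them. The longest run held the 4 genes from ZNF43 to ZNF676, followed in length by ZNF99, ZNF728 and ZNF730. Between ZNF626 and ZNF43 lay 10 consecutive genes, ZNF66 to ZNF100, of which 0 were 10-fold lower. In this stretch ZNF738 was the lowest (log2 fold change -1.65) and 2 of the 4 higher genes were found. Strand did not separate the groups: 5 of the 12 were on the plus and 7 on the minus strand.

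Level in the control libraries did not separate them either. Per length, as CPM per kilobase of the longest annotated transcript, ZNF91 was highest in control (9.53 ± 0.608, SD, n = 2), ahead of ZNF253 (8.06 ± 0.555) and ZNF493 (5.60 ± 0.179). Next came 3 genes whose control levels differed by less than the spread of ZNF90 or ZNF728, namely ZNF90 (4.96 ± 0.769), ZNF93 (4.90 ± 0.0747) and ZNF728 (4.71 ± 0.781). ZNF101 (4.40 ± 0.166) and ZNF14 (4.33 ± 0.457) followed within that spread of ZNF728, and the lowest were ZNF492 (0.524) and ZNF729 (0.0267). ZNF90 and ZNF728 were thus among the most abundant of the cluster per length in control and among the lowest in KO. In the KO libraries the order was led by ZNF91 (5.83 ± 0.309), ZNF675 (5.07 ± 0.0359) and ZNF85 (4.55 ± 0.384). Across the 34 genes, Spearman's rho between the control level per length and the log2 fold change was -0.15, and between the number of finger matches and the log2 fold change -0.14. Both are descriptions over genes that share the same 4 libraries.

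Near-identical copies can share reads, so the sequence that is private to each gene was counted. Of the 31-base words in a gene's annotated transcripts, the share found in no other annotated gene ran from 69.0% to 88.6% in the 12 nearly absent genes (median 78.7%) and from 50.1% to 94.8% in the other 22 tested genes (median 83.7%). ZNF98 and ZNF492 were the least distinct, with 50.1% and 54.9% private words, and 45.9% of the words of ZNF98 also occurred in ZNF492. Their levels, including the higher level of ZNF492, are uncertain for that reason. No member overlapped another on the chromosome, but 11 of the 35 overlapped some other tested gene, 8 of them on the same strand. Since no source used here gives the strand setting of the counting, counts within such overlaps cannot be fully assigned.

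Closely similar promoters were found on genes with very different values between the groups. Over 377 pairs of windows from different genes, median identity was 75.6% (range 48.9% to 91.0%), against a median of 49.7% with the 1610 promoter windows of other chromosome 19 genes not named ZNF. Some windows were less alike: ZNF101 reached at most 56.7%, ZNF14 at most 56.6% and 1 window of ZNF682 at most 52.6%. The most similar pair was ZNF714 and ZNF431 (91.0%), with log2 fold changes of -0.33 and 0.08. ZNF486 and ZNF626 (87.5%) were both nearly absent from KO, but ZNF486 was nearly as similar to ZNF66 (87.4%), which was 1.40-fold lower. ZNF85, higher in KO, was closest to ZNF208 (82.3%), nearly absent there. Spearman's rho between identity and the absolute difference in log2 fold change was 0.15, a description over pairs that share genes. CpG dinucleotides numbered 8 to 18 per window, with a median of 11 in the 8 windows of nearly absent genes and 10 in the other 20, against 14 over all windows. CCAATCAG was present in all 8 nearly absent genes with a window and in all 19 others. Among these 8, the windows of ZNF43 and ZNF730 lie at starts well inside the gene span.

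**Figure D3:**
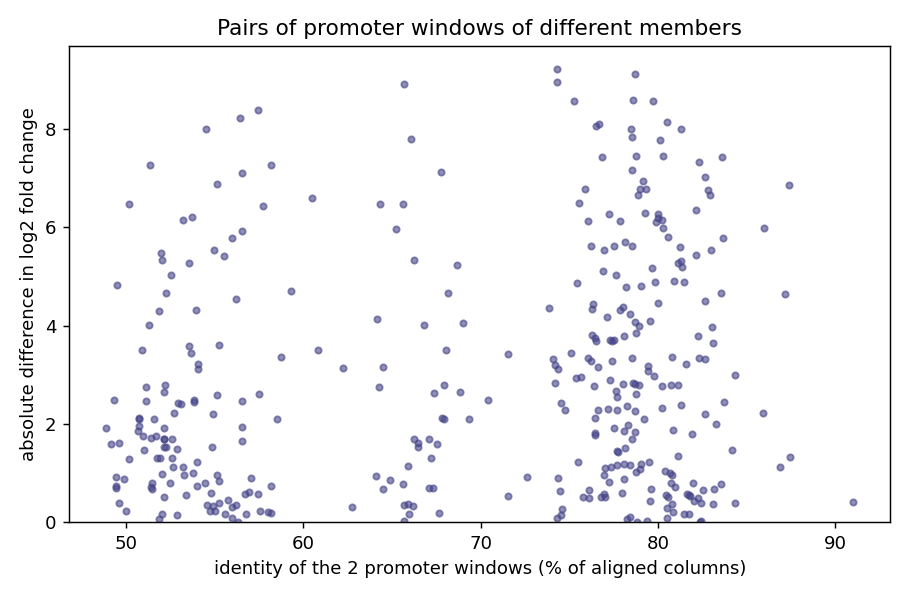
Each point is a pair of promoter windows of different genes of the cluster, with the share of identical aligned columns on the x axis and the absolute difference of the log2 fold changes on the y axis, over 377 pairs. Differences from near 0 to more than 6 occur among pairs with more than 80% identity.

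Genes that share the region but are no zinc finger genes were also mostly lower. Of 162 such genes between the first and the last member, 26 were tested, 0 of them protein-coding; 16 were called lower and 3 higher, with a median log2 fold change of -1.47. At least 10-fold lower were 7 of the 26 (26.9%), beside 35.3% of the tested members. Of these 7, AC011477.2 (log2 fold change -5.28), AC003973.3 (-5.07) and AC074135.1 (-8.87) overlap ZNF506, ZNF208 and ZNF730 on the same strand. Others of the 7, such as AC010615.2, overlap no member. Counts within overlaps cannot be fully assigned, so the 26 are not all separate from the members. The most abundant of the 26 was the pseudogene AC139769.1, between ZNF681 and ZNF726, which was higher in KO (24.8 and 24.3 against 11.02 and 12.8 CPM). IPO5P1, a symbol that the annotation gives to a pseudogene and a non-coding gene just before ZNF91, was lower (4.04 and 4.20 against 11.9 and 12.3 CPM), as was the non-coding gene AC010329.1 (4.04 and 4.95 against 8.80 and 7.12 CPM). AC010615.2, a non-coding gene between ZNF493 and ZNF429 in the stretch where 0 members were 10-fold lower, was itself nearly absent from KO (0.0854 and 0 against 9.93 and 10.1 CPM). LINC01224, a non-coding gene between ZNF91 and ZNF675, was also lower at 0.997 and 1.14 against 6.99 and 6.17 CPM. Pseudogenes can share reads with their parent genes. The region also holds the zinc finger genes ZNF723 and ZNF724, which are not on the list of 35; both were lower (0.114 and 0.135 against 2.64 and 3.60 CPM, and 2.05 and 2.17 against 5.28 and 6.17 CPM).

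Zinc finger genes elsewhere in the genome moved in the same direction with smaller medians. Of 197 tested ZNF genes on chromosome 19 outside the span, 147 were called lower and 15 higher (median log2 fold change -0.83), and 10.2% were at least 10-fold lower. Of 216 on other chromosomes, 133 were lower and 39 higher (median -0.51), and 5.09% were at least 10-fold lower. Other protein-coding genes of chromosome 19 were not mostly lower, with 261 of 831 lower and 390 higher (median 0.14). These differences between lists were not tested. The cluster was chosen because zinc finger genes of chromosome 19 were mostly lower. The low values of the members and of the 197 others on that chromosome are therefore a description, not separate observations.

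Relatives of the cluster that lie on chromosomes 7 and 4 gave mixed values. The 13 tested are also counted among the ZNF genes of other chromosomes given above. Of 9 tested on chromosome 7, 6 were lower and 1 higher, and of 4 tested on chromosome 4, 3 were lower and 1 higher; 0 of these 13 were 10-fold lower. ZNF117 of chromosome 7 was 10.0 and 11.7 against 68.9 and 72.7 CPM (edgeR adjusted p = 2.51e-23), and ZNF736, also on chromosome 7, was 21.2 and 21.1 against 44.9 and 46.4 CPM. On chromosome 4, ZNF721 was 48.3 and 53.2 against 64.8 and 59.0 CPM, while ZNF595 was higher (46.8 and 42.9 against 27.8 and 25.4 CPM, edgeR adjusted p = 1.66e-11).

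**Figure D4:**
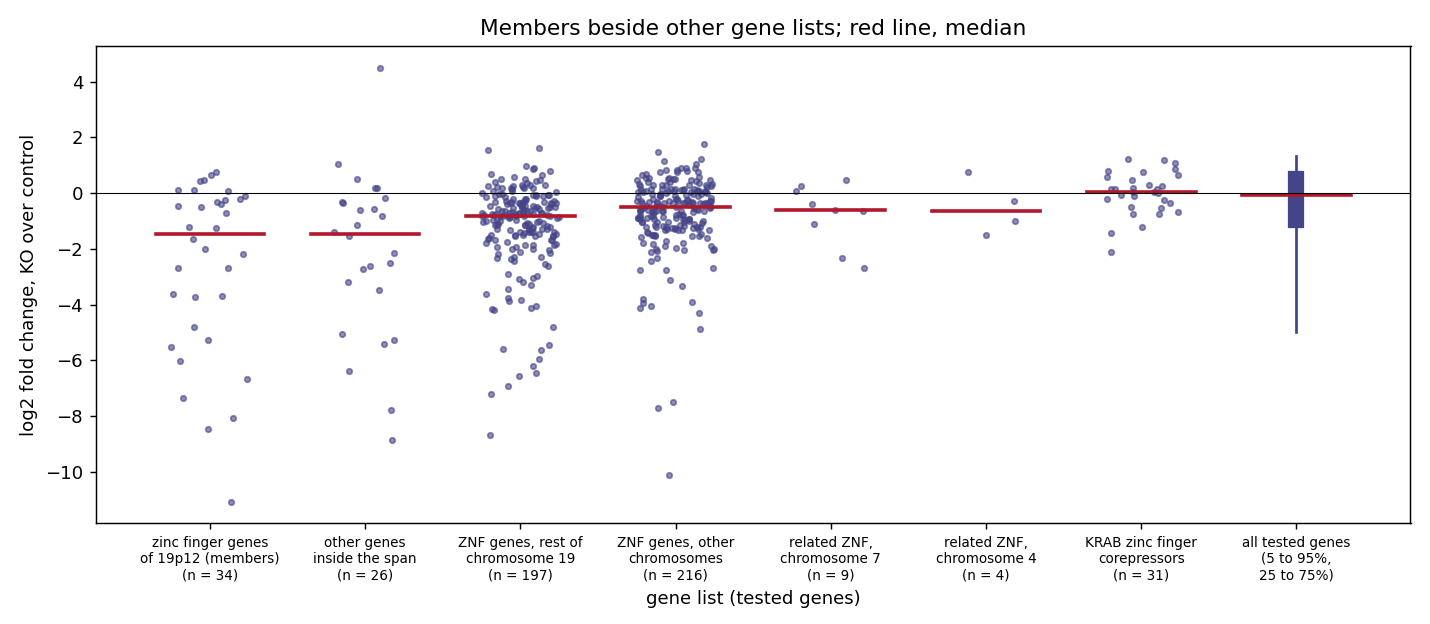
Log2 fold change (KO over control) of the tested genes in each list, 1 point per gene, with the median as a red line; for all tested genes the thick bar spans 25 to 75% and the thin line 5 to 95%. The median of the cluster (-1.45) lies beside that of its neighbours (-1.47), some of which overlap a member. It lies under those of other ZNF genes (-0.83 and -0.51). The mostly lower values of ZNF genes on chromosome 19, inside and outside the span, led to the choice of the cluster. Values of genes with 0 counts in a group are fitted values, not bounds.

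A list of corepressors of KRAB zinc finger proteins and of further silencing factors split in direction. Of 31 listed genes, all tested, 12 were lower (38.7%), 15 higher (48.4%) and 4 not past the threshold. Among all tested genes, 39.8% were lower and 36.4% higher. The list had a median log2 fold change of 0.05, with 0 genes at least 10-fold lower. It was drawn up with earlier results of these data known. TRIM28, the scaffold bound by the KRAB domain, was 164 and 162 against 136 and 136 CPM (edgeR adjusted p = 2.88e-08). SETDB1 was 105 and 107 against 77.5 and 78.2 CPM (edgeR adjusted p = 1.31e-11). Both were slightly higher, also with upper-quartile factors (log2 fold changes 0.13 and 0.32), which moved the median of all genes by -0.13. That scaling turned the split of the list to 15 lower and 11 higher. ZNF274 was lower (14.9 and 15.5 against 34.9 and 35.8 CPM). It encodes a zinc finger protein that binds the 3' ends of zinc finger genes and recruits SETDB1 to them. The gene lies on chromosome 19 and is also counted among the ZNF genes there outside the span. Their mostly lower values led to the choice of the cluster, so the value of ZNF274 is a description. It is counted in the 12 lower genes of this list. Among the 6 with the smallest p, the deacetylase complex subunit genes MTA1 (92.8 and 92.7 against 253 and 249.7 CPM) and CHD3 (8.71 and 10.6 against 41.3 and 43.3 CPM) were lower. So was FAM208A, the gene of the HUSH complex subunit TASOR (86.2 and 84.6 against 145 and 146 CPM). The histone-binding gene RBBP4 (393 and 395 against 189 and 184 CPM), the heterochromatin protein gene CBX3 (252 and 259.9 against 152 and 153 CPM) and KIAA1551, now RESF1 (253 and 255.7 against 115 and 108 CPM), were higher.

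Facts of the libraries as a whole bear on these values. The KO libraries were deeper, at 38671744 and 40799624 gene counts, than the control libraries, at 17567202 and 20153596; with KO counts thinned to the control depth, 24 members were again called lower, 11 of them at least 10-fold, and 4 higher. BCL7A, the targeted gene, was 1.31 and 1.19 CPM in the KO and 42.9 and 45.7 CPM in the control libraries. All 10 plasma cell markers were present in every library and called higher in KO, with sums of 15248 to 15289 CPM in the KO and 8156 to 8275 CPM in the control libraries. Markers of other cells also moved with the group. The 5 mature B cell markers summed to 0.683 to 0.893 CPM in the KO and 107 to 109 CPM in the control libraries, with 3 lower and 2 not tested. The 5 epithelial markers summed to 11.99 to 12.6 CPM in the KO and 66.1 to 70.9 CPM in the control libraries (2 lower, 1 higher) and the 5 fibroblast markers to 0.352 to 0.456 CPM in the KO and 10.99 to 11.1 CPM in the control libraries (2 lower). The 5 T cell markers summed to 14.2 to 14.3 CPM in the KO and 27.7 to 28.4 CPM in the control libraries (3 lower) and the 5 myeloid markers to 0.704 to 0.940 CPM in the KO and 1.29 to 1.58 CPM in the control libraries (1 lower, 1 higher). CD3D and KRT19 had 0 counts in all 4 libraries. The part of these differences in the zinc finger values was not tested.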

How the data were processed

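Poly(A) RNA-seq libraries of 2 KO and 2 control samples were grouped by their titles. The authors deposited 1 table of whole-number counts per gene; Salmon 0.12 and GRCh38 are named in the submitters' processing notes, and for annotation, strand setting and rounding nothing is given in the sources used here. Salmon divides reads that match several genes by estimation, which bears on a family of near-identical genes. All 56809 gene names occur in GENCODE release 29 (GRCh38), which gave coordinates, transcript lengths and 31-base words; 92 spike-in rows (at most 2 counts each) were left out.

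Genes were filtered with filterByExpr (17885 tested), scaled by TMM (factors 0.909 and 0.906 in KO, 1.10 in both controls) and compared with edgeR 4.0.16 (robust quasi-likelihood test, no covariates) in R 4.3.3, with Benjamini-Hochberg adjustment over all tested genes and a threshold of 0.05. The SE is the absolute log2 fold change over the root of F. The fit was tested on simulated data in which far fewer genes changed, and by smaller amounts, than in these libraries. That simulation does not speak for the scaling used here. The common biological coefficient of variation was 2.32%. Alternatives were RLE and upper-quartile scaling, no and a stricter filter (mean count of 10 and 1 CPM in 2 libraries), DESeq2 1.42.0, limma-voom (limma 3.58.1), a replicate block, each library left out, no robust shrinkage, a threshold of 0.01 and thinned KO counts. Promoters were aligned globally with Biopython 1.88.

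The members and lists were chosen with earlier results of these data known. Values in every library are given for tested members with a mean of at least 2 CPM, those higher in KO and those at 0 counts in a group. Of the other lists, the text names the 6 corepressor genes with the smallest p plus TRIM28, SETDB1 and ZNF274, the 5 most abundant other genes of the span and the most abundant related genes; ZNF723 and ZNF724 were named after their values were seen. Of the corepressor list, 2 of 31 genes matched through an older symbol. A further marker list is not reported here.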

Additional observations from a re-analysis of the deposited data

How the results depend on the processing

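Over the 14 alternatives, 22 to 26 members were called lower and 4 higher in each, against 24 and 4 in the reported analysis. Leaving out 1 library at a time gave 23 to 24 lower and 4 higher, a median log2 fold change of the members between -1.56 and -1.36, a summed log2 ratio between -0.91 and -0.82, and 12363 to 13102 genes called in all, against 13629. With the replicate number as a block the counts were 24 and 4, the median was -1.45 and 13287 genes were called. The labels do not say that a number marks a shared culture, and deviations of same-numbered libraries from their group means correlated at -0.00894 across genes; the block changed no call of a member. The number of members at least 10-fold lower, a count added after the data were seen, was 11 or 12. Some settings moved a summary beyond the replicate spread: upper-quartile factors (median -1.59, summed log2 ratio -1.001 against -0.87) and the choice of genes (median -1.17 with no filter, where ZNF729 enters; summed log2 ratio -1.02 without the 3 most abundant members). With upper-quartile factors ZNF431, ZNF100 and ZNF681 reversed to -0.0517, -0.0269 and -0.0371. Of 476 combinations of member and alternative, 462 kept direction and call, 8 lost the call (ZNF66 in 6, ZNF714 in 2), 3 gained it and 3 reversed. With 0 and 2 counts in KO, ZNF728 and ZNF90 allow only a bound and a wide counting interval.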
